A study of Mus musculus with 4 samples.

Results

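Transcripts of 41 genes of glycolysis, lactate handling, the pentose phosphate pathway and the hypoxia response were compared between immune cells of 2 kinds, sorted from mouse wound bed dermis at day 5. One population was CD301b macrophages, which carry a C-type lectin of that name on their surface. The second was F4/80-negative immune cells, which the sort defined by absence of F4/80, a surface protein in general use as a mouse macrophage marker. All mice were male C57/Bl6 animals, 7 weeks old, and no genotype, drug or other treatment is named in the labels. The genes were listed by name from the pathways. All 41 were found among the 24358 gene symbols of the table, and all 41 were among the 13039 genes with a tested transcript. Each population was sequenced as 2 libraries, and the authors gave 1 FPKM (fragments mapped per length of transcript and per size of library) per transcript and population. The spread between libraries and the depth of each library are therefore unknown, and no error accompanies an FPKM. Nothing states that the libraries came from separate animals, so the p-values may cover technical spread alone. CD301b-negative wound macrophages were not analysed here.

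Glycolysis splits glucose into pyruvate in the cytosol and yields ATP without oxygen. Pyruvate then either becomes lactate, which leaves the cell through monocarboxylate transporters, or enters mitochondria through pyruvate dehydrogenase. The pentose phosphate pathway branches from the first glycolytic intermediate and supplies NADPH, which phagocytes use in the oxidative burst and in glutathione recycling, and ribose for nucleotides. The transcription factor HIF-1 raises many of these genes when oxygen is low, as it is in fresh wounds, and activated macrophages are known to lean on glycolysis.

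The populations are called by their labels, and marker genes were read first. All 10 macrophage markers were higher in CD301b macrophages, at a summed level of 7928 FPKM against 2683 FPKM in F4/80-negative cells, among them Adgre1, the gene of F4/80, at 557 against 151 FPKM, whereas Mgl2, the gene of CD301b, was lower at 49.2 against 103 FPKM, which goes against the sort label. Of each pair here and below, the first value is CD301b macrophages. All 8 dendritic cell markers (1744 against 3688 FPKM), 5 of 6 mast cell markers (19.7 against 56.2 FPKM) and 3 of 6 tested neutrophil markers (2176 against 3919 FPKM, with Elane at 0 in both) were lower. The neutrophil sum was mostly S100a8 (938 against 1725 FPKM) and S100a9 (1092 against 2025 FPKM). The remaining lower marker, Csf3r, was 68.1 against 71.3 FPKM. Not past the threshold were Retnlg (49.6 against 71.1 FPKM), Cxcr2 (27.3 against 25.7 FPKM) and Ltf (1.24 against 0.703 FPKM). Fibroblast markers were high in both populations, with 1 of 6 lower (4200.2 against 6197 FPKM). None of 6 keratinocyte (141 against 176 FPKM), 4 endothelial (49.8 against 53.7 FPKM), 4 tested muscle (12.7 against 8.89 FPKM) and 3 tested erythroid markers (600 against 561 FPKM) was past the threshold of an adjusted p of 0.05, and no B cell marker reached 1 FPKM. Of 3 tested T cell markers 1 was lower, Il7r at 9.40 against 16.8 FPKM, which made up most of the list's 11.8 against 19.5 FPKM. Cd3d (0.697 against 0.615 FPKM) and Cd3g (1.10 against 1.49 FPKM) were low and not past the threshold. The part of these cell types in the differences of Slc2a6, Hk3, Pfkfb3, Ldha and G6pdx reported next was not tested. In sorted bulk samples, fewer cells of a type and less RNA per cell cannot be told apart.

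Of the 41 genes, 4 were higher in CD301b macrophages (Hk3, G6pdx, Pfkfb3 and Ldha), 1 was lower (Slc2a6) and 36 were not past the threshold, an adjusted p of 0.05 by Benjamini-Hochberg adjustment, over all tested transcripts, of p-values from the authors' deposited table. The background was 11.0% of tested genes called higher and 6.20% called lower, 17.2% in all, and the 5 calls among 41 genes were close to that background. Each adjusted p given below by the authors' deposited table is this Benjamini-Hochberg adjustment of its unadjusted p-values. A gene was called when at least 1 of its transcripts passed and none passed in the other direction. The FPKM summed over its transcripts also had to go the same way. Among genes at 1 FPKM or more in a population, which all 41 were, the background was 11.8% higher, 6.54% lower and 18.4% in all. The smallest unadjusted p in the authors' deposited table was at most 0.05 for 11 of the 41 genes (26.8%), against 32.8% of all tested genes. At 1 FPKM or more in both populations, 7 of 40 of these genes differed by 1.5-fold or more, against 22.6% of tested genes, and 1 differed by 2-fold or more, against 6.40%. On the log2(FPKM + 1) scale, where changes of low genes look smaller, the median log2 fold was 0.05 over the 41 genes and 0.05 over all tested genes. Median scaling multiplied the FPKM of CD301b macrophages by 0.925, which set the median gene level in both populations. The median gene was taken over tested genes at 1 FPKM or more in both populations. This factor shifts the log2 of a plain ratio by -0.11, and the log2(FPKM + 1) fold by less, above all in low genes. Under median scaling the median log2 fold became -0.04 over the 41 genes and -0.04 over all tested genes. The number of the 41 genes with the higher summed FPKM in CD301b macrophages was 23 as deposited and 15 under median scaling, and the share of all tested genes with the higher value there was 55.3% and 46.0%.

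**Figure D1:**
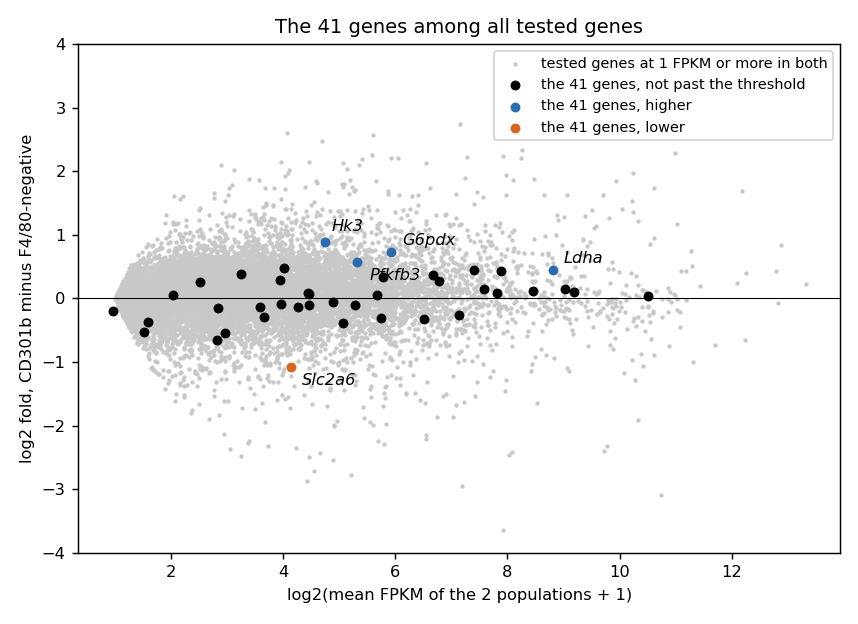
Each point is 1 gene, with the log2 of its mean FPKM over both populations plus 1 on the horizontal axis and its log2 fold (CD301b macrophages minus F4/80-negative cells, on the log2(FPKM + 1) scale) on the vertical axis. Grey points are the 11179 tested genes at 1 FPKM or more in both populations, and the 41 genes are drawn over them, with the 5 that passed the threshold named. Of the 41 genes, only Slc2a6 lies beyond 1 on the vertical axis, in the lower direction.

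Together the 41 genes made up 0.989% of all FPKM in CD301b macrophages and 0.952% in F4/80-negative cells. Their levels covered a wide range, from Pfkfb1 at 0.820 FPKM to Gapdh at 1472 FPKM in CD301b macrophages. In both populations 32 of the 41 reached 10 FPKM and 10 reached 100 FPKM. Gapdh, Pkm, Aldoa, Ldha and Pgk1, in that order, had the highest summed FPKM in both populations, while the regulated entry steps (hexokinase, phosphofructokinase) stood between 4.22 and 37.3 FPKM per gene.

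**Figure D2:**
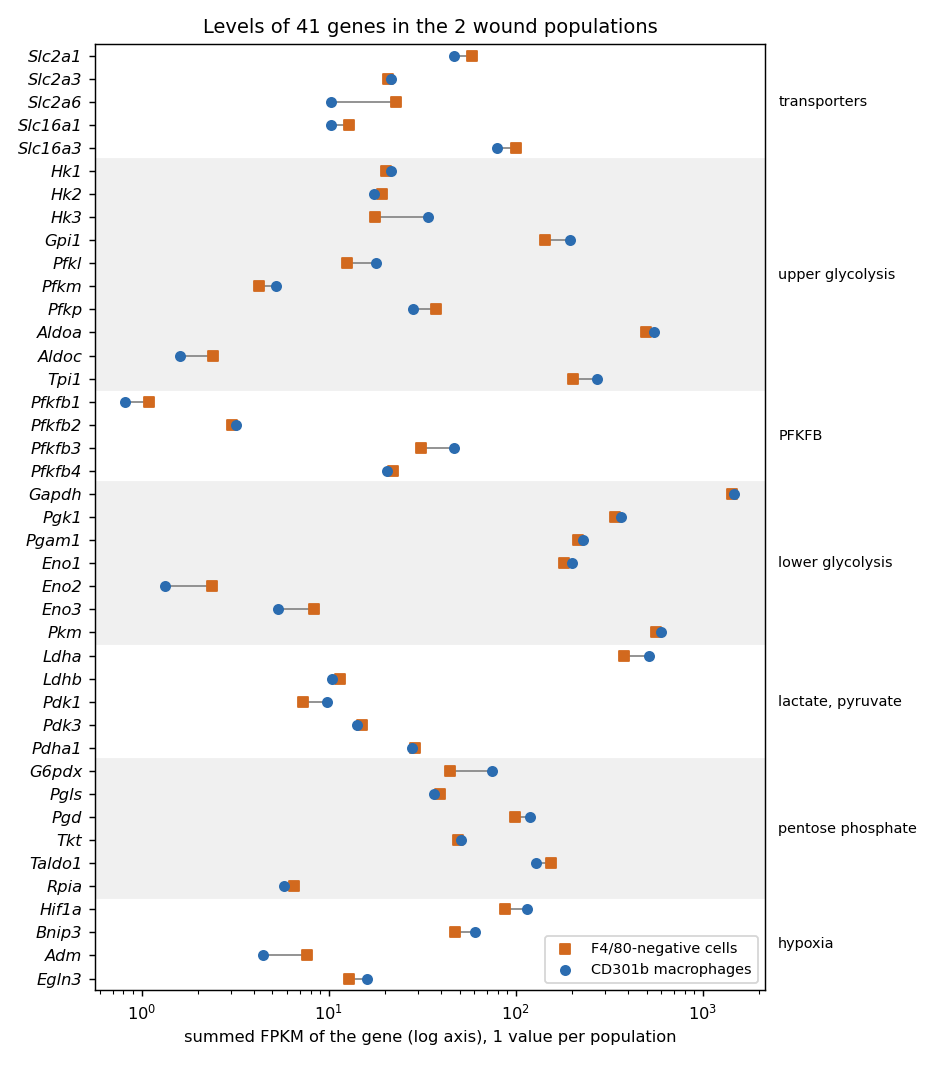
Summed FPKM of each of the 41 genes on a log axis, with 1 orange square for F4/80-negative cells and 1 blue circle for CD301b macrophages, grouped by role. The pairs of symbols nearly coincide for Gapdh, Pkm, Pgk1 and Pgam1 and are farthest apart for Slc2a6 (10.3 FPKM in CD301b macrophages and 22.9 FPKM in F4/80-negative cells).

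Among the 5 transporters, 1 was lower in CD301b macrophages and none was higher. Slc2a6 (NCBI gene 227659, chromosome 2, 27021363 to 27028000, GRCm38) encodes GLUT6, a member of the glucose transporter family found on lysosomes of macrophages. Its summed FPKM was 10.3 in CD301b macrophages and 22.9 in F4/80-negative cells, a 2.21-fold difference. The adjusted p was 0.000999 by Benjamini-Hochberg adjustment of the authors' deposited p-values. This was the smallest adjusted p of any transcript, and many genes shared it. Among them were Hk3, Adgre1, all 8 dendritic cell markers and, of the other pathway genes, Slc2a9 and Prps2. It therefore does not rank Slc2a6 above these. Nearly all of the Slc2a6 FPKM came from a single transcript, NM_172659, at 10.3 against 22.4 FPKM. Slc2a1, which encodes GLUT1, the main inducible glucose importer, was 46.8 against 58.1 FPKM and did not pass the threshold. Slc2a3, which encodes the high-affinity importer GLUT3, was 21.6 against 20.6 FPKM, and this order turned under median scaling. The lactate exporter Slc16a3 (MCT4) was 79.7 against 100.1 FPKM over its 3 transcripts. Slc16a1 (MCT1), which carries lactate in either direction, was 10.3 against 12.9 FPKM. Neither lactate transporter was past the threshold, and MCT4 supplied 88.5% of the FPKM of the pair in CD301b macrophages and 88.6% in F4/80-negative cells.

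In upper glycolysis, 1 of 10 genes was higher in CD301b macrophages and none was lower. Hk3 (NCBI gene 212032, chromosome 13, 55005985 to 55021475, GRCm38), the hexokinase typical of myeloid cells, was 33.8 against 17.8 FPKM, a 1.90-fold difference with adjusted p = 0.000999 by the authors' deposited table. Its 3 expressed transcripts were all higher by FPKM, at 14.3 against 6.79 (NM_001206391), 12.4 against 6.14 (NM_001206390) and 6.97 against 4.82 (NM_001033245), and only NM_001206391 was past the threshold. The other hexokinases, Hk1, the widely expressed form, and Hk2, the inducible form bound to mitochondria, were 21.6 against 20.2 FPKM (an order that turned under median scaling) and 17.5 against 19.2 FPKM, with neither past the threshold. Hk3 was thus the most abundant hexokinase in CD301b macrophages, with 46.4% of the hexokinase FPKM, and the least abundant in F4/80-negative cells, with 31.0%. The change of these shares has no test of its own.

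The 3 genes of phosphofructokinase, the committed step, did not all lean the same way. Pfkp, the platelet form, was 28.2 against 37.3 FPKM and Pfkl, the liver form, was 17.9 against 12.5 FPKM. Their adjusted p was 0.118 and 0.0832 by the authors' deposited table, so neither was past the threshold. The share of Pfkp in the family was 54.8% in CD301b macrophages and 69.0% in F4/80-negative cells, and that of Pfkl was 35.0% and 23.2%. Exons of Pitrm1 on the opposite strand cover 18.0% of the Pfkp transcript, and the strand setting of the counting is not known. Pfkm, the muscle form, was low in both (5.24 against 4.22 FPKM).

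The isomerases and aldolases of the upper path were not past the threshold. Gpi1, glucose phosphate isomerase, was 195 against 143 FPKM, with adjusted p = 0.124 by the authors' deposited table. Tpi1, triose phosphate isomerase, was 271 against 202 FPKM, with adjusted p = 0.148 by the authors' deposited table. Aldoa, the main aldolase, was 548 against 494 FPKM over 3 transcripts with different start positions. The transcript NM_001177308 was 406 against 327 FPKM and NM_007438 was 132 against 159 FPKM, and neither was past the threshold. Aldoc, the brain aldolase, was 1.61 against 2.39 FPKM.

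**Figure D3:**
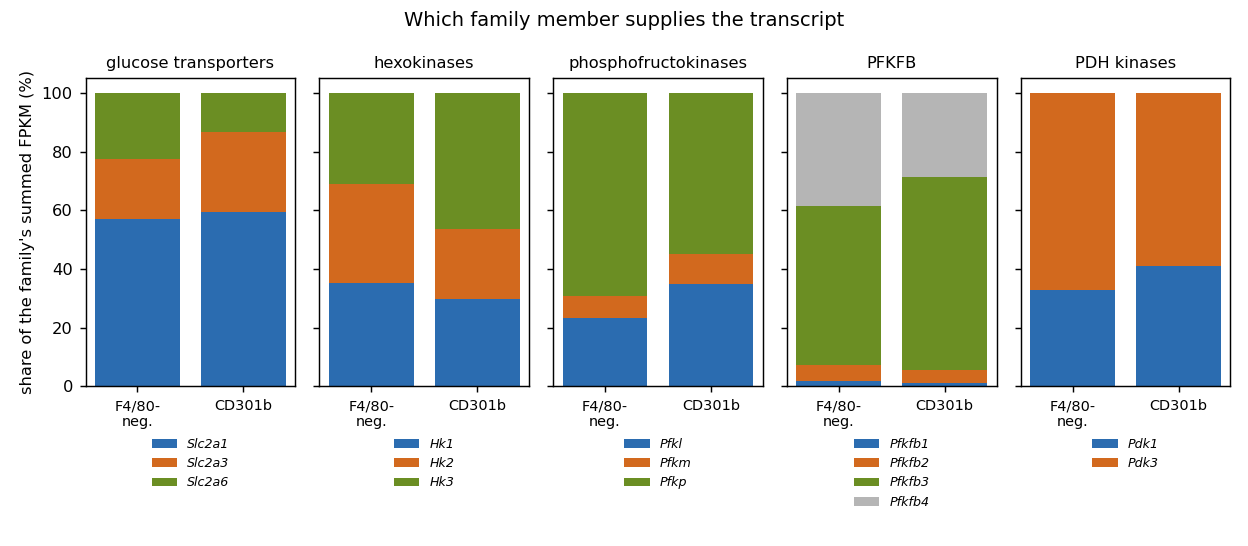
Stacked bars give the share (%) of each gene in the summed FPKM of its family, in F4/80-negative cells and in CD301b macrophages, for glucose transporters, hexokinases, phosphofructokinases, the PFKFB enzymes and the pyruvate dehydrogenase kinases. Hk3 takes 31.0% of hexokinase FPKM in F4/80-negative cells and 46.4% in CD301b macrophages, and Slc2a6 takes 22.5% and 13.1% of the glucose transporter FPKM.

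The PFKFB enzymes make and remove fructose 2,6-bisphosphate, the strongest activator of phosphofructokinase. Of the 4 genes, Pfkfb3, the form with the highest kinase activity, was higher in CD301b macrophages. Pfkfb3 (NCBI gene 170768, chromosome 2, 11471430 to 11554071, GRCm38) was 46.8 against 31.0 FPKM, a 1.51-fold difference with adjusted p = 0.0237 by the authors' deposited table. The passing transcript NM_001177758, which has the most upstream start among the transcripts of the gene, was 38.8 against 25.0 FPKM and made up 82.9% and 80.5% of the gene. A second transcript, NM_001177755, was 7.52 against 4.39 FPKM and lay just outside the threshold, with adjusted p = 0.0583 by the authors' deposited table. The remaining tested transcript, NM_001177752, went the other way at 0.503 against 1.66 FPKM, with adjusted p = 0.431 by the authors' deposited table. Pfkfb4 was 20.4 against 22.0 FPKM, and Pfkfb2 (3.19 against 3.06 FPKM, turned under median scaling) and Pfkfb1 (0.820 against 1.09 FPKM) were low. None of these 3 was past the threshold.

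In lower glycolysis none of 7 genes was past the threshold, and their summed FPKM was 2873 against 2737. Gapdh, the first enzyme of the pay-off phase and a common reference gene, was 1472 against 1429 FPKM, a ratio of 1.03 that fell to 0.952 under median scaling. Pgk1, phosphoglycerate kinase (365 against 338 FPKM), and Pgam1, phosphoglycerate mutase (230 against 216 FPKM), also turned their order under median scaling, as did Pkm. Eno1, the main enolase, was 200.2 against 182 FPKM. The low enolases Eno2, the neuronal form (1.34 against 2.39 FPKM), and Eno3, the muscle form (5.39 against 8.30 FPKM), stood lower in CD301b macrophages without passing the threshold. Several of these levels are uncertain because the genes share sequence with near copies. Of the 50-base words of the main transcript, 90.4% in Gapdh and 72.2% in Eno1 also occur in transcripts of other genes. For Pgk1 and Pgam1 these shares were 68.0% and 41.5%. The level assigned to each of these genes is therefore uncertain. Outside lower glycolysis, such shares included 40.9% in Pfkfb2, 27.0% in Ldhb, 19.3% in Gpi1, 14.4% in Aldoa and 12.4% in Taldo1.

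Pkm (NCBI gene 18746, chromosome 9, 59656576 to 59679372, GRCm38) encodes pyruvate kinase, which makes pyruvate and ATP. It is spliced with 1 of 2 mutually exclusive exons, which give the constitutively active M1 enzyme and the regulated M2 enzyme of proliferating and activated cells. The exons are shown because reads across them separate the forms. They are 167 bases each, on the plus strand, within the coding sequence, at chr9:59675029-59675195 (M1) and chr9:59675568-59675734 (M2), and capitals mark the 64 positions at which the 2 differ when laid side by side without gaps (61.7% identical).
M1 exon: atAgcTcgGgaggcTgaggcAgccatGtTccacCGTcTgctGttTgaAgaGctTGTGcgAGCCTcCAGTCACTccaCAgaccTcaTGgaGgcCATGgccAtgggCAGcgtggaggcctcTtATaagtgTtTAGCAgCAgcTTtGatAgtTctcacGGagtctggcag
M2 exon: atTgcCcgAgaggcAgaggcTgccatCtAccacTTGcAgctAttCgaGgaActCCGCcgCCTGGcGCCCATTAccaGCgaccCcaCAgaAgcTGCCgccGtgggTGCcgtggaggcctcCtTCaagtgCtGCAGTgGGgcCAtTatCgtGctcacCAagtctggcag
The M2 transcript (NM_011099) was 522 FPKM in CD301b macrophages and 476 FPKM in F4/80-negative cells. The M1 transcript (NM_001253883) was 76.5 FPKM in CD301b macrophages and 85.5 FPKM in F4/80-negative cells. M2 was thus the main form in both populations, at 87.2% and 84.8% of Pkm FPKM, and M1 was 12.8% and 15.2%. The summed FPKM of Pkm was 599 against 561, an order that turned under median scaling. The adjusted p was 0.694 for M2 and 0.648 for M1 by the authors' deposited table. The 2 transcript models also end at different positions, so their FPKM do not come from these exons alone, and 34.4% of the 50-base words of the M2 transcript also occur in transcripts of other genes. Exons of Gm49759 on the same strand cover 167 bases (6.87%) of the M2 transcript.

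Ldha (NCBI gene 16828, chromosome 7, 46842274 to 46855627, GRCm38), the lactate dehydrogenase subunit that favours lactate formation, was 516 against 380 FPKM by summed FPKM, a 1.36-fold difference. The call came from the noncoding transcript NR_102727, at 93.3 against 42.3 FPKM (2.21-fold), with adjusted p = 0.0125 by the authors' deposited table. The coding transcript NM_010699 was 422 against 337 FPKM (1.25-fold), with adjusted p = 0.324 by the authors' deposited table, so the protein-coding message of Ldha was not shown to differ. The share of NR_102727 in Ldha was 18.1% in CD301b macrophages and 11.1% in F4/80-negative cells, and this difference in shares has no test of its own. The transcripts share their internal exons except exon 6 of the coding transcript, 118 bases long (chr7:46851877-46851994, plus strand), which NR_102727 lacks. That length is not a multiple of 3, and GENCODE classes the transcript without it as a target of nonsense-mediated decay. The absent exon is shown first, and then the junction that replaces it in NR_102727, with the last 20 bases of exon 5 in lower case and the first 20 bases of the next exon in capitals (the joined ends lie at chromosome 7, 46851058 and 46853983).
Exon absent from NR_102727: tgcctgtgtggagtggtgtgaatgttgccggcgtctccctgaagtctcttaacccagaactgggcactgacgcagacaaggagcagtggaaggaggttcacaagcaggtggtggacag
Junction of NR_102727: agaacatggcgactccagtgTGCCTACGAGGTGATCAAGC
NR_102727 also ends before the coding transcript, so its FPKM does not rest on that junction alone, and 19.1% of the 50-base words of the coding transcript also occur in transcripts of other genes. Ldhb, the subunit that favours the reverse reaction, was 10.5 against 11.5 FPKM, and Ldha made up 98.0% and 97.1% of the FPKM of the pair.

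**Figure D4:**
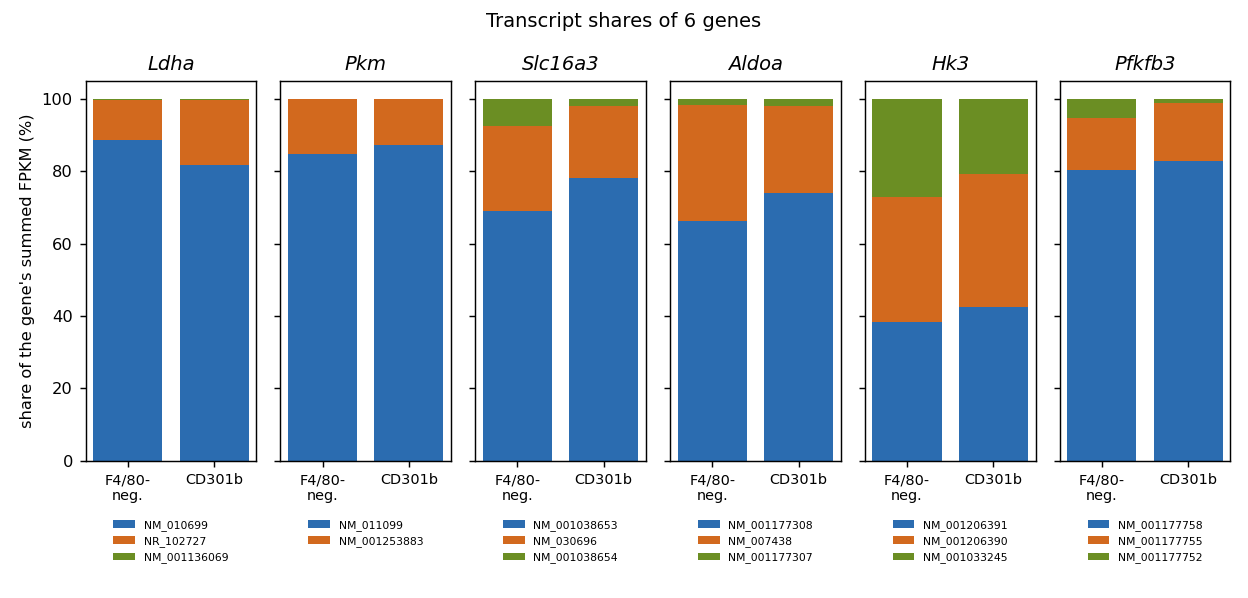
Stacked bars give the share (%) of each transcript in the summed FPKM of Ldha, Pkm, Slc16a3, Aldoa, Hk3 and Pfkfb3, in F4/80-negative cells and in CD301b macrophages. Transcripts are named by RefSeq identifier and those under 0.1% in both populations are left out. The noncoding NR_102727 takes 11.1% of Ldha in F4/80-negative cells and 18.1% in CD301b macrophages, and the main transcript of each of the 6 genes is the same in both populations.

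Of the 41 genes, the 3 that steer pyruvate away from or into mitochondria were not past the threshold. Pdk1 and Pdk3, kinases that switch pyruvate dehydrogenase off, were 9.80 against 7.31 and 14.1 against 15.0 FPKM. Pdha1, a catalytic subunit of pyruvate dehydrogenase, was 28.0 against 29.0 FPKM, and exons of Map3k15 on the opposite strand (1.93 against 2.04 FPKM) cover 21.2% of its transcript.

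The promoter of Ldha is shown because it is a textbook target of HIF-1, which binds the core letters ACGTG or GCGTG. RefSeq promoter windows were listed for 2 starts of Ldha. The 250 bases before the upstream one of these (GRCm38.p6, chr7:46845554-46845803, plus strand) are printed with matches to either motif on either strand in capitals.
Ldha promoter: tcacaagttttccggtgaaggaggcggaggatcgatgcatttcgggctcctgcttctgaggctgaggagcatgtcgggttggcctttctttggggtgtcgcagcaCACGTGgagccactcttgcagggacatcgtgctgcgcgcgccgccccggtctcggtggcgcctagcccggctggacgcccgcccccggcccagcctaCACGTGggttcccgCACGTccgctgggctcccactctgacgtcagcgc
The window held 5 matches to ACGTG over both strands, of which 4 overlap in pairs within the palindrome CACGTG, and none to GCGTG. The window of the other start held no match to ACGTG and 1 to GCGTG, a count that 38.6% of all windows reached. Of all 32851 promoter windows of the same length, 1.01% held 5 or more matches to the 2 motifs together. Promoter entries were found for 40 of the 41 genes, in 59 windows, some of which overlap. Of these windows, 79.7% held ACGTG or GCGTG, against 54.4% of the windows of tested genes and 38.6% of all windows, and their mean GC content was 58.7%, 59.5% and 53.2%. Bnip3, which was not past the threshold, also held 5 matches. Slc2a6, which was lower, held 4, all to GCGTG. Slc16a1, Pdk3 and a window of Pfkfb2, none past the threshold, held 4 as well. Among the higher genes, Hk3 and G6pdx held 1 each, and the windows of Pfkfb3 held 3 and 1. Gpi1, Tpi1 and Eno2 held none. A match is a string of letters, and binding was not measured.

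In the pentose phosphate pathway 1 of 6 genes was higher in CD301b macrophages and none was lower. G6pdx (NCBI gene 14381, chromosome X, 74409483 to 74428880, GRCm38), glucose-6-phosphate dehydrogenase, catalyses the first and rate-limiting step and makes NADPH. It was 74.9 FPKM in CD301b macrophages and 44.7 FPKM in F4/80-negative cells, a 1.68-fold difference in its only transcript, with adjusted p = 0.00331 by the authors' deposited table. Exons of the neighbour Ikbkg on the opposite strand cover 4.83% of the G6pdx transcript, and Ikbkg was 6.74 against 4.25 FPKM. Of the 50-base words of the G6pdx transcript, 7.65% also occur in the copy G6pd2.

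The other steps of the pathway were not past the threshold. Pgls, the lactonase of the second step, was 36.4 against 39.3 FPKM. Pgd, the second enzyme that makes NADPH, was 119 against 98.8 FPKM. In the non-oxidative part, Tkt, transketolase, was 50.7 against 49.0 FPKM, an order that turned under median scaling. Taldo1, transaldolase, was 128 against 153 FPKM, and Rpia, which makes ribose phosphate, was 5.80 against 6.55 FPKM.

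None of the 4 hypoxia genes was past the threshold. Hif1a, the oxygen-regulated subunit of HIF-1, was 114 against 88.0 FPKM. Its target Bnip3, a receptor for mitophagy, was 60.5 against 47.5 FPKM. Exons of Gm45507 on the opposite strand cover 28.7% of the Bnip3 transcript, and 21.9% of its 50-base words also occur in transcripts of other genes. Egln3, a prolyl hydroxylase that marks HIF for destruction and is itself a target of HIF, was 16.0 against 12.9 FPKM. Adm, which encodes the vasodilator adrenomedullin, was 4.48 against 7.61 FPKM and lay just outside the threshold, with adjusted p = 0.0537 by the authors' deposited table. Of the 4 genes, 3 thus had more and 1 had less FPKM in CD301b macrophages, with no call in either direction.

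**Figure D5:**
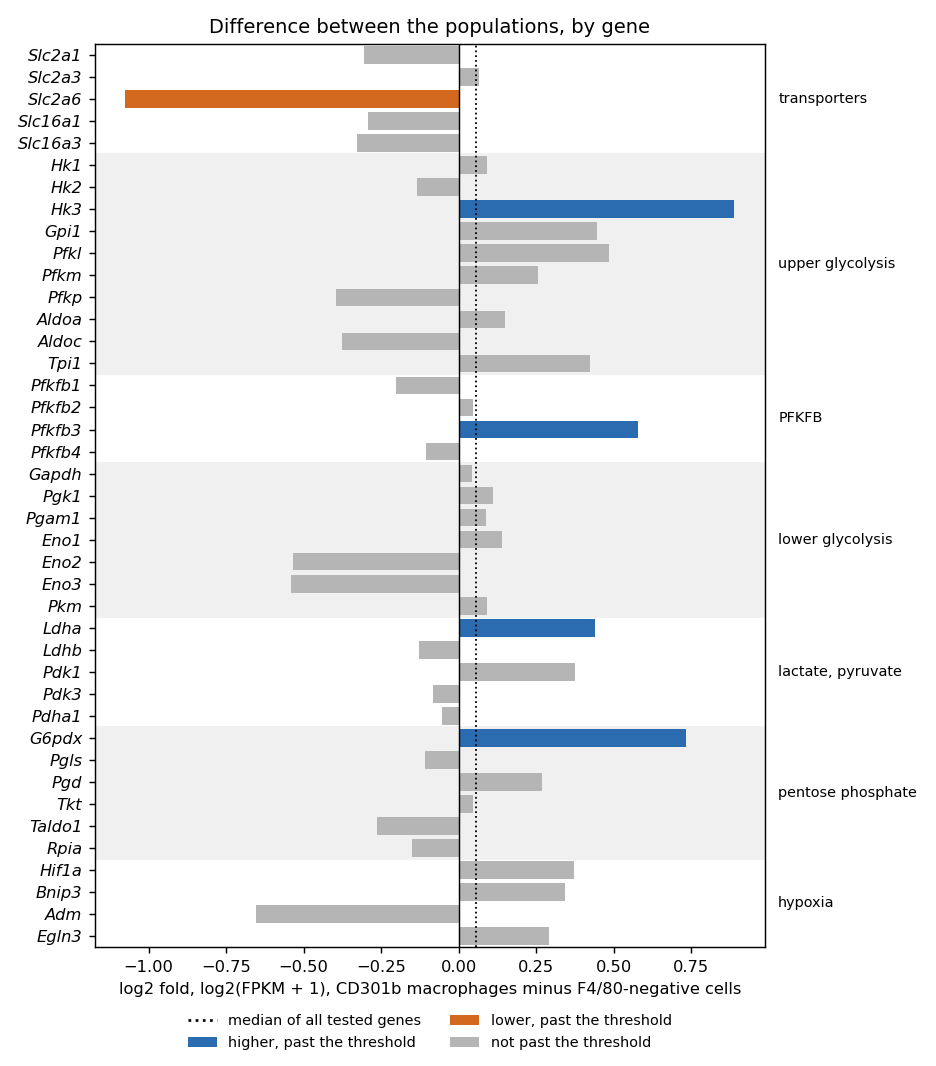
Bars give the log2 fold of each of the 41 genes, CD301b macrophages minus F4/80-negative cells on the log2(FPKM + 1) scale, with genes past the threshold in blue (higher) or orange (lower), the others in grey, and the median of all tested genes as a dotted line. The 5 coloured bars are Slc2a6, Hk3, Pfkfb3, Ldha and G6pdx. Median scaling would shift the values by up to -0.11, and by less in low genes. It would turn the sign of Slc2a3, Hk1, Pfkfb2, Gapdh, Pgk1, Pgam1, Pkm and Tkt.

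A second set of 74 genes of the same pathways, listed apart from the 41, was read for comparison. Of these, 57 had a tested transcript, and 10 were higher and 2 lower in CD301b macrophages (21.1%, against the background of 17.2%). Beside G6pdx, 2 of 6 tested pentose genes were higher, against 11.0% of all tested genes. H6pd, the counterpart of G6pdx in the endoplasmic reticulum, was 24.3 against 13.2 FPKM, and Prps2, which turns ribose phosphate into the nucleotide precursor PRPP, was 8.86 against 4.56 FPKM. Prps1, its paralogue, was 9.75 against 11.2 FPKM and did not pass the threshold.

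Among 7 tested transporters and transporter chaperones outside the 41 genes, 2 were higher, against 11.0% of all tested genes. Slc16a7 (MCT2), a high-affinity monocarboxylate carrier, was 14.0 against 6.25 FPKM, and Slc2a9 (GLUT9), which carries urate, was 6.81 against 2.79 FPKM. Bsg and Emb, chaperones that bring monocarboxylate transporters to the surface, were 196 against 165 and 63.9 against 65.6 FPKM and were not past the threshold. Of 8 tested glycolysis and side-branch genes, Gpd1, a glycerol phosphate dehydrogenase, was higher at 3.20 against 0.973 FPKM, while the phosphoglucomutases Pgm1 (20.7 against 18.1 FPKM) and Pgm2 (22.4 against 15.9 FPKM) were not past the threshold.

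Around pyruvate, 3 of 15 tested genes were higher and none was lower, against 11.0% and 6.20% of all tested genes. Pdk2, a kinase, and Pdp2, a phosphatase, act on pyruvate dehydrogenase in opposite directions and were both higher, at 4.97 against 2.71 and 2.76 against 1.47 FPKM. Pck1, a gluconeogenic enzyme, was called higher but stood under 1 FPKM in both populations (0.726 against 0.0770). The abundant Mpc1, a subunit of the mitochondrial pyruvate carrier (75.4 against 91.5 FPKM), and Pdhb, a pyruvate dehydrogenase subunit (33.8 against 49.0 FPKM), were not past the threshold.

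Of 21 tested hypoxia genes outside the 41, 2 were higher and 2 were lower, against 11.0% and 6.20% of all tested genes. The lower genes were Bhlhe40, a transcriptional repressor, at 63.5 against 112 FPKM, and Ndrg1, a stress-induced gene, at 47.4 against 76.8 FPKM. The higher genes were Cited2, which competes with HIF-1 for its coactivators, at 69.4 against 31.7 FPKM, and Hif1an, the hydroxylase that blocks HIF-1 from its coactivators, at 4.01 against 2.57 FPKM.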

How the data were processed

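RNA of sorted cells was sequenced from 4 libraries made with a TruSeq mRNA protocol, per the labels' protocols. TopHat2 2.0.2, Cuffdiff 2.0.2 and the build mm9 are named, per the submitters' processing notes, but in all 71 transcripts of the 41 genes with a GENCODE M21 model the locus overlapped that model on GRCm38. The authors deposited 1 table of 34535 transcripts with an FPKM per population and an unadjusted p-value per transcript. For the strand setting and the combining of libraries, details were not given in the sources used here. Benjamini-Hochberg adjustment of the p-values of the 16921 tested transcripts matched the deposited calls in all 34535 transcripts, and the step was tested on simulated data. FPKM were summed per gene symbol, and a pseudocount of 1 was used for log2 folds. The adjusted p of a gene is the smallest of its tested transcripts. The table holds no counts, so depth is unknown and no interval is given. With 1 value per population, no further test was made.

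The genes and lists were chosen with earlier results of these data known. All 41 genes are accounted for. Of the other 74 pathway genes, those called and the 2 most abundant of each list are named. Python 3.11.15, pandas 2.3.3 and numpy 2.4.6 were used. Gene positions and promoters are from RefSeq (GRCm38.p6), transcript models and exon sequences from GENCODE M21, counted from 1.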

Additional observations from a re-analysis of the deposited data

How the results depend on the processing

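At an adjusted p of 0.01 in place of 0.05, 2 of the 41 genes were higher in CD301b macrophages (Hk3 and G6pdx, against 6.50% of all tested genes) and 1 was lower (Slc2a6, against 3.54%). When only coding transcripts could give a call, or only the most abundant transcript of a gene, 3 genes were higher, since Ldha lost its call in both cases, and Slc2a6 was lower. Over all tested genes these settings called 10.8% and 10.4% higher and 5.79% and 5.81% lower. A minimum of 1 FPKM in a population removed none of the 41 genes. Under median scaling the ratio was 1.76 for Hk3, 1.55 for G6pdx, 1.40 for Pfkfb3, 1.26 for Ldha and 0.418 for Slc2a6, with p-values that were not recomputed. The ratio of each of the 41 genes stayed within 1.5 times its reported value under coding transcripts only, the most abundant transcript only, both scalings and a pseudocount of 0.1. With a pseudocount of 5 that held for 40 genes, the exception being Eno2. Of the 5 called genes none changed direction under these alternatives. The median log2 fold of the 41 genes lay between -0.04 and 0.06 over all alternatives. No paired analysis was possible because the table gives 1 value per population and its columns carry no replicate number. Leaving out a library was not run for the same reason.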
